A study of Mus musculus with 7 samples.

Results

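The genes of cholesterol and fatty acid synthesis were examined in bile duct cells. They were 34 of the 24552 gene symbols in a raw count table, and all 34 had a row. They were chosen by pathway name and not by a measured value, but with earlier results of these data known. They comprise a cholesterol arm of 18 enzymes, a fatty acid arm of 10 genes and 6 genes grouped as regulators of the SREBP system. Stard4, a carrier of cholesterol between membranes, was counted with the regulators. The libraries were made from EpCAM-positive cholangiocytes, the epithelial cells that line bile ducts, isolated from mouse liver. The DT group (3 libraries) came from Foxp3GFPDTR mice on DDC diet, which injures bile ducts, for 10 days, with diphtheria toxin at 1 µg/kg injected into the peritoneum every 48 h. The PBS group (4 libraries) came from mice of the same genotype on the same diet, injected with PBS at the same interval. Transgene and duct injury were therefore shared by both groups, and no group without them was analysed here. In this strain regulatory T cells, marked by Foxp3, carry the toxin receptor, and the toxin is used to deplete them. How far they were depleted was not measured in these libraries. Whether the libraries stem from different animals is not stated in the labels, so p-values here measure the spread between libraries only, and some of that spread may be technical.

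Cells build cholesterol from acetyl-CoA through mevalonate, squalene and a chain of sterols. They build fatty acids from the same precursor by carboxylation and repeated condensation, followed by elongation and desaturation. Both routes are switched on by SREBP transcription factors, which Scap escorts out of the endoplasmic reticulum when sterols are scarce and which Insig proteins hold back when sterols are plentiful. In the liver both routes are best known from hepatocytes.

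Promoter windows are shown for the members with the most reads: Hmgcs1, Cyp51 and Msmo1 of the cholesterol arm, and Acly of the fatty acid arm. Each window runs from 250 bases before to 50 bases after a gene start in RefSeq on GRCm38.p6, a later build than the mm9 used for the counts, and is written 5′ to 3′ along the gene. The Hmgcs1 window lies at chr13:119690101-119690400 on the plus strand. The others lie on the minus strand, at chr5:4104648-4104947 for Cyp51, chr8:64733529-64733828 for Msmo1 and chr11:100527951-100528250 for Acly. Capitals mark matches on either strand to TCACNCCAC (a sterol regulatory element), CCAAT (the CCAAT box, bound by NF-Y), GGGCGG (the GC box, bound by Sp1) or CACGTG (an E-box).
Hmgcs1: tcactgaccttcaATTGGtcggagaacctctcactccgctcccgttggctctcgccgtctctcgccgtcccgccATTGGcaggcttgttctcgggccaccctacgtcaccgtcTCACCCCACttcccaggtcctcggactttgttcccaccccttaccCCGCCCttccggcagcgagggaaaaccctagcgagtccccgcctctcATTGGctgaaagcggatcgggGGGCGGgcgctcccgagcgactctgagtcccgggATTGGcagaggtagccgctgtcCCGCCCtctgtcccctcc
Cyp51: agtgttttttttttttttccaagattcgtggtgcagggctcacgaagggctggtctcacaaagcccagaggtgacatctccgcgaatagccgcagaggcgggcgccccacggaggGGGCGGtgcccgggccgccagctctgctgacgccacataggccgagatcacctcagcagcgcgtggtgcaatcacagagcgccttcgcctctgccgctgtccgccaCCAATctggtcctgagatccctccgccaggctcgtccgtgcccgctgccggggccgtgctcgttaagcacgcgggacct
Msmo1: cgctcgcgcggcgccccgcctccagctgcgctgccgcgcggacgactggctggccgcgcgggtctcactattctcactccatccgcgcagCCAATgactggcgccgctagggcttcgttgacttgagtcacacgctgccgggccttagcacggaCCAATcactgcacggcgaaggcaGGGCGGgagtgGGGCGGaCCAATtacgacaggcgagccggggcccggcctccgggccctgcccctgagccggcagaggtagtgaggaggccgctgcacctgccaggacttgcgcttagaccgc
Acly: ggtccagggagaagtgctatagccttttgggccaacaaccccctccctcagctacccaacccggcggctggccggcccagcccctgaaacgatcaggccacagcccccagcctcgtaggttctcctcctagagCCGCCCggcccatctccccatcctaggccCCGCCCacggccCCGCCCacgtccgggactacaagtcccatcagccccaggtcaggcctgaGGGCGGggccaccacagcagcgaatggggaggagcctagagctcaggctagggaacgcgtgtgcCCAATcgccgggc

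The Hmgcs1 window held the sterol regulatory element, at position 114 from its 5′ end, with 4 CCAAT boxes and 3 GC boxes. The Msmo1 window held 3 CCAAT boxes and 2 GC boxes, the Cyp51 window 1 of each, and the Acly window 1 CCAAT box and 4 GC boxes. RefSeq windows were matched for 27 of the 34 members, 35 windows in all because some genes have several starts. A CCAAT box stood in 14 of 18 windows of the cholesterol arm (77.8%), in 3 of 7 of the fatty acid arm (42.9%) and in 5 of 10 of the regulators (50%), against 37.4% of all 32851 windows of this length and 38.2% of those of protein-coding genes. At least 3 CCAAT boxes stood in 5 of the 18 cholesterol windows (27.8%), those of Mvk, Hmgcs1, Nsdhl, Msmo1 and Hsd17b7, against 3.37% of all windows. GC boxes stood in 83.3% of the cholesterol windows, 42.9% of the fatty acid windows and 80% of the regulator windows, against 35.7% of all windows and 46.2% of those of protein-coding genes. The median GC content was 60.8, 65 and 62.5% in the windows of these arms, against 52.7% in all windows and 56.3% in those of protein-coding genes. The E-box stood in 6 member windows (17.1%) against 7.15% of all windows and 7.84% of those of protein-coding genes. These windows belonged to 5 genes, since overlapping windows of Scap held the same site. Among member windows the sterol element was matched in Hmgcs1 alone (2.86%), against 1.24% of all windows. Only matches to this string within 300 bases were sought, so a gene without a match may still have such an element. Fdps, Fdft1, Sqle, Stard4, Scd1, Scd2 and Fads1 had no window and were not searched. These matches describe letters in a window and do not show binding.

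Total counts ran from 5683824 to 6285624 in DT libraries and from 4805018 to 5499832 in PBS libraries, and 5419 to 7920 genes were detected in DT libraries against 5967 to 8361 in PBS libraries. Levels are given in CPM, counts scaled to a common library total, on library sizes adjusted by TMM, which corrects for library composition. Reads came from transcript 3′ ends, so CPM was not divided by gene length. Many genes of middling level were at 0 in single libraries: where the other libraries averaged 200 to 500 counts, 25.6% of all values were 0, and 13 of 63 among the members. A count of 0 allows a level of up to about 0.498 to 0.618 CPM, depending on the library, by counting error only. Cholangiocyte markers, led by Spp1 and Krt18, summed to 25065 to 30725 CPM in DT libraries and 22810 to 27994 CPM in PBS libraries, and 14 of the 16 had reads in every library. Leukocyte markers summed to 605 to 1323 CPM in DT libraries, and to 165 to 287 CPM in PBS 1 to 3 but 2487 CPM in PBS 4. Reads from Y-linked genes were present in the 3 DT libraries (155 to 279 CPM) and in PBS 1 (398 CPM), and were at 0 in PBS 2, 3 and 4. Only males carry these genes, and the labels give no sex. Treatment and sex therefore cannot be well told apart in the comparisons of DT with PBS. In bulk RNA, a change in the share of a cell type and a change in RNA per cell cannot be told apart.

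No member passed the test between DT and PBS. The edgeR quasi-likelihood test could be run on 27 of the 34 members, and each had an adjusted p of 1.00. Over the 7688 genes tested, 0% were called higher and 0.039% lower at an adjusted p of 0.05, 3 genes in all. At an unadjusted p under 0.05, 1 member was higher in DT (Hmgcs1) and 0 were lower, against 1.39% and 2.11% of all genes tested. The log2 fold change of DT over PBS was positive for 19 of the 27 members (70.4%), with a median of 0.75, against 49.3% and a median of -0.02 over all tested genes. A log2 fold change of 1 or more was fitted for 11 members and of -1 or less for 1, against 19.8% and 20.3% of all tested genes. The groups did not overlap for 2 members that were higher in DT (Hmgcs1 and Fads1) and for 0 that were lower, against 3.73% and 2.58% of all tested genes. Of the 12 members with an average log2 CPM of at least 6, the same 2 did not overlap and 9 were positive, against 4.34% without overlap higher in DT, 3.54% lower and 49.4% positive among all genes at that level. DESeq2 and limma-voom called 0 members, against 0.61% of all genes higher and 1.77% lower by DESeq2, and 0.195% higher and 0.078% lower by limma-voom. The precision of the fold changes differed widely between members. Among the 11 members with reads in all 7 libraries, 10 were positive and the median was 0.81, with standard errors of 0.45 to 2.24. Among the 16 tested members at 0 in some library, 9 were positive and the median was 0.40, with standard errors of 1.95 to 3.35.

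**Figure D1:**
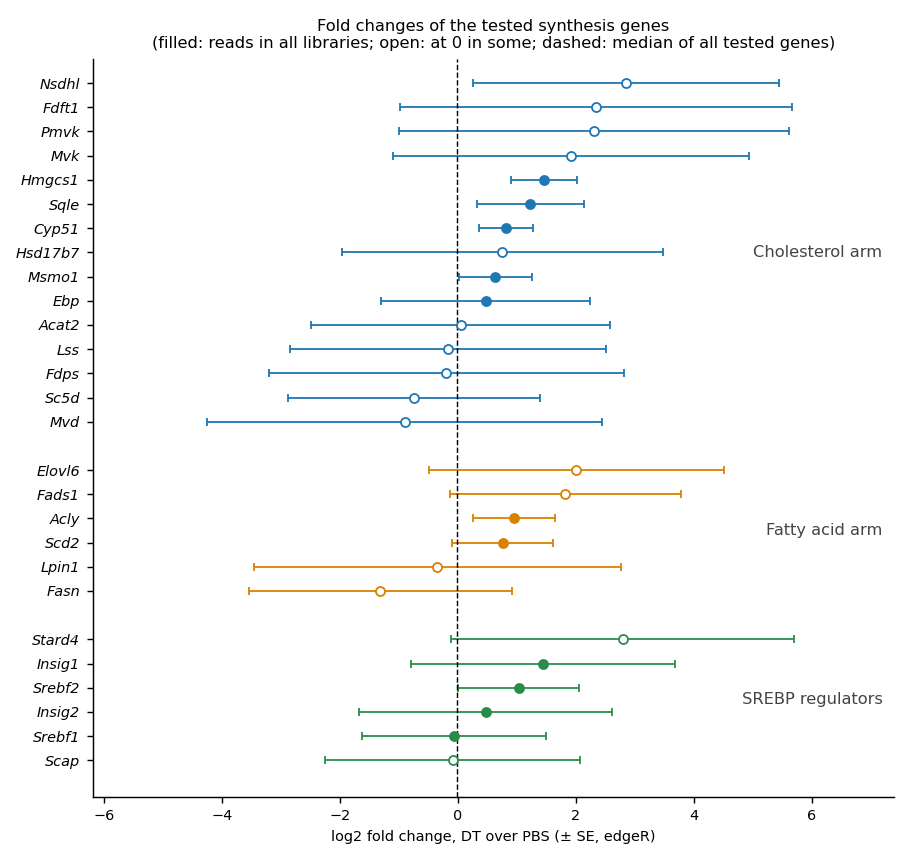
Log2 fold change of DT over PBS (x axis, ± SE from edgeR) for the 27 tested members, grouped by arm, with the median of all tested genes as a dashed line. Filled points have reads in all 7 libraries and open points are at 0 in some; 19 points lie above 0, and the open ones carry standard errors of 1.95 to 3.35.

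In the cholesterol arm the highest levels belonged to Cyp51, Msmo1, Hmgcs1 and Sqle, with means over the 7 libraries of 339, 235, 230 and 144 CPM. Hmgcs1 makes HMG-CoA, the precursor of mevalonate. It had 316, 457 and 308 CPM in DT libraries, against 75.9, 96.4, 146 and 208 CPM in PBS libraries. Every DT library stood above every PBS library. The means were 360 ± 83.4 CPM in DT and 132 ± 59.1 CPM in PBS (SD, n = 3 and 4), a log2 fold change of 1.45 (SE 0.56, edgeR unadjusted p = 0.0127, adjusted p = 1.00). DESeq2 gave an adjusted p of 0.0910 and limma-voom 0.530. With the summed hepatocyte markers as a covariate the log2 fold change was 0.43. Those marker sums did not overlap between groups either, so this fit cannot well separate marker level from treatment.

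Squalene is epoxidised by Sqle before it closes into the first sterol. Sqle had 271, 298 and 71.4 CPM in DT libraries, against 94.7, 97.4, 2.47 and 171 CPM in PBS libraries. DT 3 lay within the PBS range, and PBS 3 was far below the other PBS libraries. The log2 fold change was 1.23 (SE 0.91), and 0.81 without PBS 3. Lss, which closes the ring, had 22.9 to 48.1 CPM in DT libraries against 0 to 126 CPM in PBS libraries, where PBS 2 and PBS 4 were at 0.

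The sterols are then trimmed and rearranged. Cyp51, the lanosterol demethylase, had 377, 436 and 537 CPM in DT libraries, against 160, 271, 180 and 414 CPM in PBS libraries. DT 1 lay just under PBS 4, so the groups overlapped. Its means were 450 ± 80.6 CPM in DT and 256 ± 116 CPM in PBS (SD, n = 3 and 4), a log2 fold change of 0.81 (SE 0.45, edgeR unadjusted p = 0.0789), and -0.38 with the hepatocyte covariate. Msmo1, a methylsterol oxidase that acts later, had 308, 237 and 341 CPM in DT libraries, against 154, 439, 24.3 and 145 CPM in PBS libraries. The PBS libraries lay on both sides of the DT range. The log2 fold change of Msmo1 was 0.63 (SE 0.62), and leaving out PBS 2 or PBS 3 moved it to 1.45 or 0.25. Ebp, which shifts a ring double bond, had 73.6, 103 and 78.3 CPM in DT libraries, against 28.5, 103, 78.5 and 36.7 CPM in PBS libraries, so that the groups overlapped, with a log2 fold change of 0.47 (SE 1.77). Nsdhl, which works with Msmo1, had 17.6 to 125 CPM in DT libraries against 0 to 33.6 CPM in PBS libraries, with a log2 fold change of 2.85 (SE 2.59).

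The other tested cholesterol enzymes had means under 70 CPM over all libraries, each was at 0 in at least 1 library, and their groups overlapped. Their log2 fold changes ran from -0.91 for Mvd to 2.34 for Fdft1, with standard errors of 2.13 to 3.35. Mvk and Pmvk, the kinases of mevalonate, had 1.92 and 2.30, while Mvd, the decarboxylase that follows them, had -0.91. Fdft1, the squalene synthase, was at 0 in DT 1 and in PBS 1, 2 and 3. Acat2, Fdps, Hsd17b7, Lss and Sc5d lay between -0.75 and 0.75. Idi1 and Dhcr7, an isomerase early in the route and a reductase at its end, were listed at 0 in all 7 libraries. Absence of their transcripts and loss of their reads in the authors' counting cannot be told apart from the table, and the same holds for Scd1, a desaturase gene with 1 count in all. Tm7sf2, a sterol reductase, was at 0 in all DT libraries and had 100 counts in PBS 1 alone.

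In the fatty acid arm the highest levels belonged to Acly and Scd2. Acly, which splits citrate into cytosolic acetyl-CoA for both routes, had 275, 128 and 312 CPM in DT libraries, against 176, 116, 148 and 55.7 CPM in PBS libraries. DT 2 lay inside the PBS range. The means were 238 ± 97.5 CPM in DT and 124 ± 51.8 CPM in PBS (SD, n = 3 and 4), a log2 fold change of 0.94 (SE 0.70). Scd2, a desaturase that makes monounsaturated fatty acids, had 145, 224 and 162 CPM in DT libraries, against 58.6, 118, 155 and 88.8 CPM in PBS libraries. Only DT 1 lay below PBS 3, and the log2 fold change was 0.75 (SE 0.85).

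Fasn, the synthase that assembles palmitate, had 0, 54.1 and 49.7 CPM in DT libraries, against 0, 214, 57.3 and 75.4 CPM in PBS libraries. One library of each group was at 0, and the log2 fold change was -1.32 (SE 2.23), or -0.35 without PBS 2. Fads1, a desaturase of polyunsaturated fatty acids, had 68.1, 81.9 and 198 CPM in DT libraries, against 34, 0, 49.2 and 48.2 CPM in PBS libraries. Its groups did not overlap, as for Hmgcs1, yet the log2 fold change of 1.82 had an SE of 1.95 and was 1.18 without DT 3. Elovl6, which lengthens palmitate, had 33.7 to 148 CPM in DT libraries against 0 to 48.2 CPM in PBS libraries. Lpin1, a phosphatidate phosphatase, had 0 to 68.5 CPM in DT libraries against 0 to 66.2 CPM in PBS libraries. Acaca, the carboxylase that commits acetyl-CoA to this route, had 116 CPM in DT 3 and 105 CPM in PBS 1 and was at 0 elsewhere. Fads2 had 144 counts in DT 3 and 58 in PBS 4, Acss2 had 11 counts in DT 1 and 2 in PBS 4, and Scd1 had 1 count in PBS 4, with 0 in the other libraries. These 4 genes were too sparse to test.

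**Figure D2:**
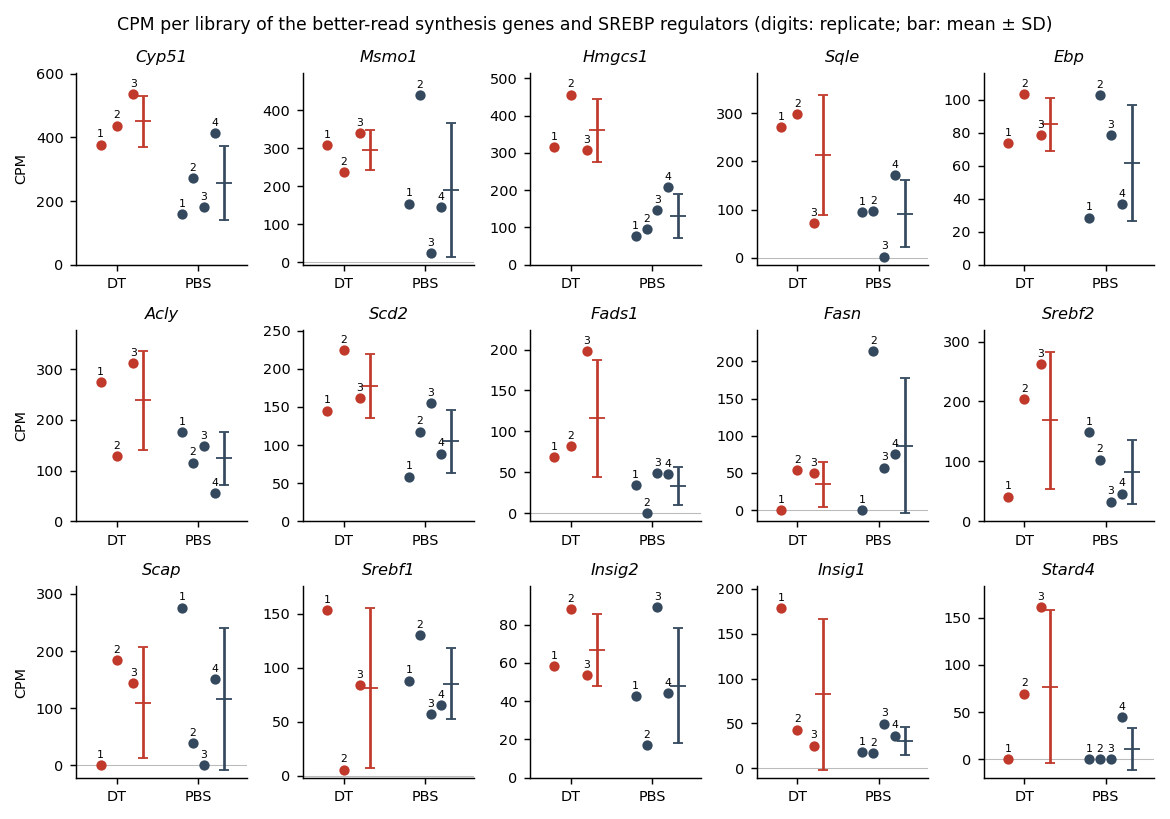
CPM in each library (y axis) for the members whose average log2 CPM was at least 6 and for all 6 regulators, DT left and PBS right, with digits for the replicate and bars for mean ± SD. The DT points of Hmgcs1 (308 to 457 CPM) and Fads1 (68.1 to 198 CPM) lie above all PBS points, and the groups overlap in the other panels.

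Among the regulators, Srebf2 encodes the SREBP best known for cholesterol genes and Srebf1 the one best known for fatty acid genes. Srebf2 had 41.2, 204 and 262 CPM in DT libraries, against 149, 103, 32.8 and 46.2 CPM in PBS libraries. DT 1 was near the lowest PBS library, and the log2 fold change was 1.03 (SE 1.02). It was 0.56 without DT 3 and 0.18 with a Y-linked covariate (reads present or not). That covariate leaves PBS 1 as the only PBS library compared with DT, since PBS 2, 3 and 4 had no Y-linked reads. Srebf1 had 153, 5.63 and 84.0 CPM in DT libraries, against 87.9, 130, 57.3 and 65.3 CPM in PBS libraries. DT 2 was the lowest and DT 1 the highest of the 7 libraries, with a log2 fold change of -0.07 (SE 1.56) that was -0.95 without DT 1 and 0.47 without DT 2.

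Scap, the escort protein, had 0, 184 and 144 CPM in DT libraries, against 276, 39.4, 0 and 151 CPM in PBS libraries, with a log2 fold change of -0.09 (SE 2.16) that was -0.69 without DT 2 and 0.78 without PBS 1. Insig1, itself a well-known SREBP target, had 179, 43.0 and 25.4 CPM in DT libraries, against 18.1, 17.2, 49.8 and 36.3 CPM in PBS libraries. DT 1 alone stood above the PBS range: the log2 fold change of 1.44 (SE 2.24) was 0.15 without it. Insig2 had 58.3, 88.1 and 53.6 CPM in DT libraries, against 42.7, 17.0, 89.0 and 44.0 CPM in PBS libraries, with a log2 fold change of 0.47 (SE 2.14). Stard4, a carrier of cholesterol between membranes, had 0, 69.7 and 161 CPM in DT libraries, against 0, 0, 0 and 44.4 CPM in PBS libraries. It was at 0 in 4 of the 7 libraries, and its log2 fold change of 2.79 (SE 2.91) was 1.64 without DT 3.

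The arms were then compared as sums of CPM. The cholesterol arm summed to 1605, 1955 and 1884 CPM in DT libraries, against 1051, 1213, 585 and 1206 CPM in PBS libraries. All DT sums lay above all PBS sums, with means of 1815 ± 185 CPM in DT and 1014 ± 295 CPM in PBS (SD, n = 3 and 4) and a log2 ratio of 0.84. The fatty acid arm summed to 524, 627 and 1011 CPM in DT libraries, against 423, 513, 458 and 317 CPM in PBS libraries. These did not overlap either, by a margin of DT 1 over PBS 2 smaller than the spread within each group. The log2 ratio was 0.75, and 0.42 without DT 3. The regulators summed to 431, 594 and 730 CPM in DT libraries, against 573, 306, 229 and 387 CPM in PBS libraries. These groups overlapped, with a log2 ratio of 0.65.

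The sums of both arms were recomputed without their leading genes. Without Hmgcs1 and Cyp51 the cholesterol log2 ratio was 0.68 and the groups still did not overlap, while without Hmgcs1, Cyp51, Msmo1 and Sqle it was 0.53 and they overlapped. Without Acly the fatty acid log2 ratio was 0.67 and the groups overlapped. By genes, the median log2 fold change was 0.75 over 15 tested cholesterol enzymes (11 positive, 4 negative), 0.85 over 6 tested fatty acid genes (4 positive, 2 negative) and 0.75 over 6 regulators (4 positive, 2 negative). Leaving out PBS 4 moved the cholesterol median to 0.43 and the regulator median to 0.42. The ratio of the cholesterol sum to the fatty acid sum was 3.07, 3.12 and 1.86 in DT libraries, against 2.49, 2.36, 1.28 and 3.80 in PBS libraries. The PBS values spanned the DT values, so the balance of the arms differed by less than the spread between libraries.

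**Figure D3:**
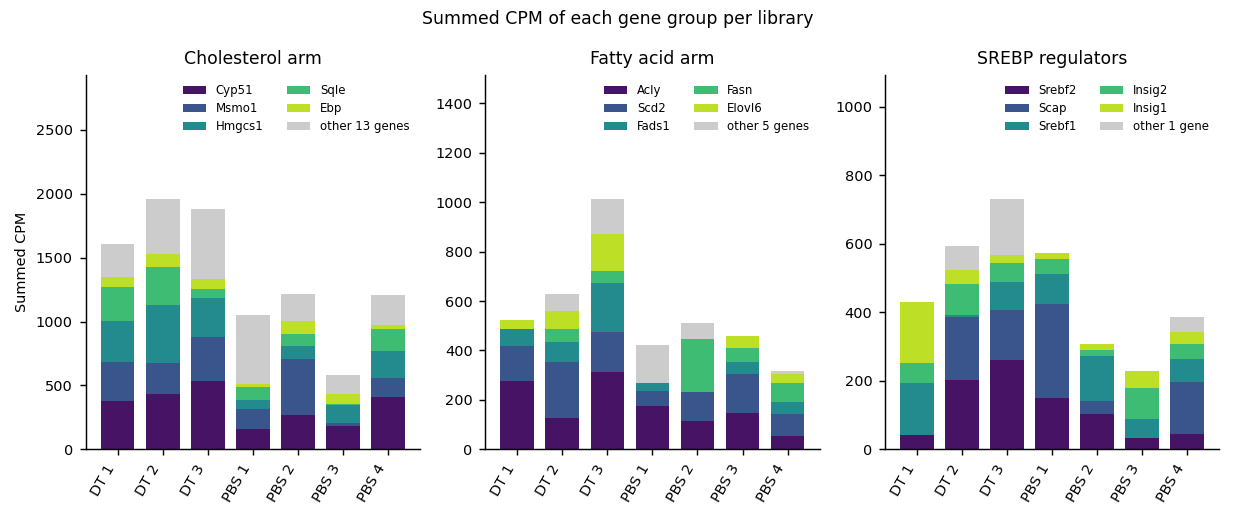
Summed CPM (y axis) of the cholesterol arm, the fatty acid arm and the regulators in each of the 7 libraries, DT left and PBS right, stacked by the genes with the highest levels. The cholesterol sums are 1605 CPM or more in DT libraries and 1213 CPM or less in PBS libraries, and the regulator sums overlap.

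Like the sums of the cholesterol and fatty acid arms, hepatocyte markers were higher in every DT library than in any PBS library. They summed to 4904, 5212 and 5621 CPM in DT libraries, against 2430, 3375, 3114 and 4220 CPM in PBS libraries, without overlap and with a log2 ratio of 0.68. Within PBS the fatty acid arm did not keep the marker order: PBS 4 had the highest marker sum and the lowest fatty acid sum. PBS 2 and PBS 4, the highest in markers, also had the highest cholesterol sums (1213 and 1206 CPM). PBS 1 was lowest in markers and PBS 3 in the cholesterol arm. Within DT the fatty acid sums rose with the marker sums (524, 627 and 1011 CPM). The cholesterol sums there did not follow that order (1605, 1955 and 1884 CPM). Of the 30 markers, 4 had reads in every library (Alb, Fgb, Gc and Ambp), and 9 were at 0 in every library, among them Cps1, Ass1 and Cyp3a11. Alb averaged 1719 CPM in DT and 1022 CPM in PBS, without overlap. Gc, the best-read marker, averaged 1824 CPM in DT and 1335 CPM in PBS, with overlap. Over all libraries Gc, Alb and Ambp had 57449, 50009 and 29833 counts and Fgb, the next, 3639, so the sum rests mostly on those genes. Taken as a percent of the hepatocyte marker sum, the cholesterol arm was 32.7, 37.5 and 33.5% in DT libraries, against 43.2, 35.9, 18.8 and 28.6% in PBS libraries. The fatty acid arm was 10.7, 12.0 and 18.0% in DT libraries, against 17.4, 15.2, 14.7 and 7.52% in PBS libraries. On this scale both arms overlapped between groups. With the hepatocyte sum as a covariate the median log2 fold change was 0.18 in the cholesterol arm, 0.82 in the fatty acid arm and 0.65 in the regulators, against 0.75, 0.85 and 0.75 without it. Single genes moved both ways under it: Acly was at 2.35, Srebf2 at 2.1 and Fasn at -13.0. Since the marker sums did not overlap between groups, these fits cannot well separate marker level from treatment. The part of hepatocyte RNA in the arm sums was not tested.

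**Figure D4:**
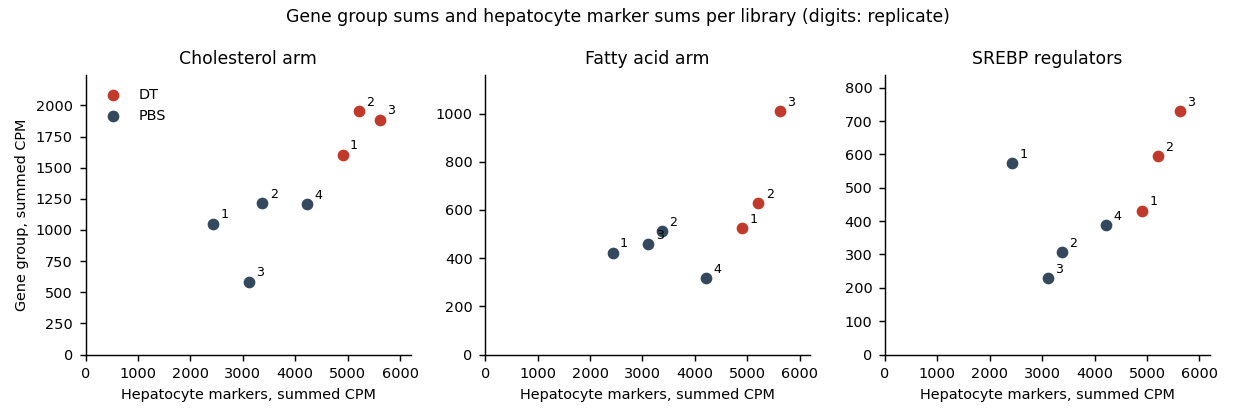
Summed CPM of each gene group (y axis) against summed CPM of the 30 hepatocyte markers (x axis), 1 point per library with its replicate number. The DT libraries (4904 to 5621 CPM of markers) lie to the right of all PBS libraries (2430 to 4220 CPM) and above them for the cholesterol and fatty acid arms.

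Genes next to these routes were read from 5 further lists, and edgeR called 0 of their genes in either direction. The lists held 9, 13, 9, 22 and 17 tested genes, in the order given below. Before adjustment, 1 gene was higher and 1 lower with edgeR p under 0.05, both for sterol handling (Cyb5r3 and Gramd1a). Over all genes tested the shares were 1.39% higher and 2.11% lower, so these counts are no sign of an excess. In the isoprenoid branch, which draws on mevalonate for protein prenylation and dolichol, 4 of 9 tested genes had a positive log2 fold change (median -0.01). Rabggtb, a subunit of the Rab prenylating enzyme, had -0.15 (SE 0.75). Of 13 tested sterol handling genes 6 were positive, with a median of -0.13. Cyb5r3, a reductase that supplies electrons to sterol and fatty acid enzymes, averaged 300 ± 47.7 CPM in DT and 123 ± 70.0 CPM in PBS, without overlap (log2 fold change 1.29, SE 0.62, edgeR unadjusted p = 0.0446, adjusted p = 1.00). Lbr, a nuclear envelope protein with sterol reductase activity, averaged 105 ± 50.4 CPM in DT and 236 ± 93.2 CPM in PBS, without overlap the other way (log2 fold change -1.17, SE 0.70).

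Of the SREBP processing genes 3 of 9 were positive (median -0.40), and Sec24c, a coat protein of vesicles that leave the endoplasmic reticulum, had -0.40 (SE 0.84). Of the genes that supply or activate fatty acids 8 of 22 were positive (median -0.48), with 0.44 (SE 0.52) for Acsl4, an acyl-CoA synthetase, and -0.16 (SE 0.57) for Me1, which makes NADPH. Of the fatty acid oxidation genes 12 of 17 were positive (median 0.44), with 1.07 (SE 0.71) for Hadh and -1.14 (SE 0.94) for Hadha, both of the oxidation spiral. DESeq2 called 2 sterol handling genes lower in DT, against 1.77% of all genes, and both were named after their values were seen. Abca1, a cholesterol exporter, was at 0 in all DT libraries and had 0, 0, 72 and 478 counts in PBS libraries (DESeq2 adjusted p = 2.30e-08), and edgeR did not test it. It was at 0 in 5 libraries, and most of its counts came from PBS 4, the library highest in leukocyte markers (2487 CPM). The DESeq2 log2 fold change of -23.7 was fitted with no DT reads, so this p-value does not stand for a well-read difference. Gramd1a, a sterol carrier, was at 0 in all DT libraries and had 486, 279, 0 and 41 counts in PBS libraries (DESeq2 adjusted p = 0.0422, edgeR unadjusted p = 0.0269).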

How the data were processed

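Libraries were made from 100 ng total RNA with a Lexogen QuantSeq FWD kit, per the labels' protocols. The authors deposited raw read counts per gene symbol, with mm9 as the build named in the submitters' processing notes. The aligner, the counter, the annotation and the handling of molecular identifiers were not given in the sources used here. Titles and treatments in the labels gave the groups. Members and gene lists were chosen with earlier results of these data known. Counts were scaled by TMM and filtered by filterByExpr (7688 genes, 97.5% of counts), and DT was compared with PBS by the two-sided quasi-likelihood F test of edgeR 4.0.16 (R 4.3.3, robust) with Benjamini-Hochberg adjustment at 0.05. The scripts were tested on simulated data. Alternatives were other scaling and filters, covariates, a replicate block, DESeq2 1.42.0, limma 3.58.1 (voom, with weights per sample) and the omission of each library in turn. Arm sums without their leading genes were added after seeing the data. Full values are given for members whose average log2 CPM was at least 6 and for all regulators, the others by range. Pathway lists were illustrated from their 3 best-read genes and marker lists from their 2 best-read genes. One such gene is not reported here. Motifs were searched in RefSeq promoter windows. Floors take 3 counts as the limit that a count of 0 allows, which covers counting error only, since PCR copies of a molecule are counted as separate reads.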

Additional observations from a re-analysis of the deposited data

Results flagged for a closer look

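Among 30 sets of PBS values (the 27 tested members and the 3 sums by arm), 3 had 1 library far from the other 3. Chance would give about 1.5 for normally spread values, which these, with their many zeros, are not. Fdft1 was at 26.5 CPM in PBS 4 and 0 in the other PBS libraries, so that its gap took up the whole range (share 1.0). Stard4 was likewise at 44.4 CPM in PBS 4 and 0 in the others (share 1.0). Hsd17b7 was at 131 CPM in PBS 1, with 0.790 CPM as the nearest value (share of the range 0.994).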

How the results depend on the processing

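No member was called in either direction under any of the 19 alternatives run. The count of all genes called higher was 0, and became 1 with all genes kept, 1 with a minimum average log2 CPM of 3, 6 with the replicate block, 23 with the Y-linked covariate, 15 by limma-voom and 47 by DESeq2, and 0 to 1 when single libraries were left out. The count called lower was 3, and became 7 with all genes kept, 1 with a minimum average log2 CPM of 6, 6 with the replicate block, 6 by limma-voom and 136 by DESeq2, and 1 to 4 when single libraries were left out. DESeq2 called 2 genes of the pathway lists lower. The fatty acid median became 1.41 with the leukocyte covariate and 1.68 with the Y-linked covariate, and the regulator median -0.086 with a minimum average log2 CPM of 6, where 3 genes were left. With the hepatocyte covariate Cyp51 was at -0.38, Ebp at -0.018, Srebf1 at 0.31, Scap at 0.55 and Stard4 at -6.25. Srebf1 was at 0.16 with the leukocyte covariate and ran from -0.95 to 0.47 when single libraries were left out. Scap was at 1.28 by limma-voom and ran from -0.69 to 0.78 when single libraries were left out. Fasn was at 10.5 with the Y-linked covariate, which compares DT with PBS 1, where Fasn was at 0. The cause of the other shifts was not tested. With the replicate number as a block, Scap was at 2.19 and no member was called. Same-numbered libraries did not deviate together (r of -0.049 to 0.026 over 733 genes, 0 of 3 pairs over 0.1, and 1 DT library closest to its own number), so no pairing by number was seen. Whether they share a batch was not tested. Members were often at 0 in single libraries at levels where counting error alone allows few zeros, which limits their precision.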
